A study of Mus musculus with 16 samples.

Results

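Cytosolic ribosomal protein genes were examined in bone and brain of the Ali35 mutant mouse line. They were taken as every probe on the array whose gene symbol was Rpl or Rps followed by a number (with the usual a, x and l endings), or Rplp0, Rplp1, Rplp2 or Rpsa. This gave 81 probes of 63 genes, out of 25697 probes on the array. The large ribosomal subunit was represented by 53 probes of 40 genes and the small subunit by 28 probes of 23 genes. Kinases named Rps6k and the ribosomal proteins Rps3a1 and Fau, whose symbols lie outside this rule, were not members.

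The mice were of the strain C3H/HeJ. Ali35 is a mutant line with a mutation in Shc2, whose product is an adaptor that couples receptor tyrosine kinases to Ras signalling. The 4 groups were Ali35 bone and wild-type bone, both from mice aged 120 days, and Ali35 brain and wild-type brain, both from pups aged 3 days, with 4 mice and 4 one-colour bead arrays in each. Tissue and age therefore changed together, and the labels gave neither sex nor whether the Ali35 mice carried 1 or both mutant alleles. Total RNA was taken from tissue that holds many cell types, in which fewer cells of a type and less RNA per cell cannot be told apart.

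Intensities were the deposited normalized values, from which background had been subtracted. A floor of 16 was applied before the log2 transformation, and within each tissue only probes at or above this floor on 4 or more of the 8 arrays were kept. Each array had 47.3% of its probes at or above 16 in bone and 42.3% in brain. An identical share on values already normalized does not show array quality. Arrays of 1 group correlated at r = 0.977 to 0.991 across probes in bone and 0.983 to 0.992 in brain. Osteoblast and osteocyte markers were kept for 10 of 11 genes on the array in bone, and neuron markers for 5 of 8 in brain, including Dcx, Map2 and Stmn2. One library stood apart: Ali35 bone replicate 1 had Xist intensities of 221 and 167 on the pair of Xist probes and -2.5 for the Y-linked gene Eif2s3y, against at most 11.7 for Xist and at least 410 for Eif2s3y on the other 7 bone arrays. For members lower in bone, the adjusted p without this library is given beside the result.

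Ribosomal proteins assemble with ribosomal RNA into the small subunit, which reads the mRNA, and the large subunit, which joins amino acids. Most are needed in equal amounts and come from single active genes that are scattered over the genome and have many processed pseudogenes. Their mRNAs begin with a run of pyrimidines, the TOP motif, through which mTOR signalling and Larp1 govern their translation, and several of their promoters bind GABP, an Ets-family factor, or YY1. Bone holds blood-forming marrow, and mutations in several of these genes cause Diamond-Blackfan anaemia in humans.

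Promoter sequences were read from RefSeq (GRCm38.p6), in which 54 of the 63 genes had 65 start windows of 250 bases before to 50 after the start. The 5 stretches below run from 60 bases before to 20 bases after the annotated start. They are shown because they carry the motifs marked in capitals in genes on which the results turn. These genes are members lower in Ali35 bone (Rpl38, Rps10, Rps7, Rpl35) and the member lower in Ali35 brain (Rps21). The TOP motif at the first base of the mRNA was not searched, so a marked pyrimidine run is not shown to be a TOP motif. Capitals mark CCGGAAG, the core of an Ets-family site, or its reverse complement, and CTTTCC, a pyrimidine run. Rps21 has another annotated start, and the like stretch around it, not shown, holds neither motif.

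Rpl38 (chr11:114668520-114668599, plus strand): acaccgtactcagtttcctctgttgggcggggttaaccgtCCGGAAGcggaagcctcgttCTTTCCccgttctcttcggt
Rps10 (chr17:27635225-27635304, minus strand): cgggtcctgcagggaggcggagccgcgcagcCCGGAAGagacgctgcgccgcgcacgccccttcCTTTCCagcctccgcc
Rps7 (chr12:28635934-28636013, minus strand): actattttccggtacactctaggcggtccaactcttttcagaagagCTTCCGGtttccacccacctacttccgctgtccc
Rpl35 (chr2:39005112-39005191, minus strand): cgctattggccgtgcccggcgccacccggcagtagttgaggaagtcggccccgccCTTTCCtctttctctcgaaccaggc
Rps21 (chr2:180257319-180257398, plus strand): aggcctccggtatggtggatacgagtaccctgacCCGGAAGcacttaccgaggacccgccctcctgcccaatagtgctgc

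CCGGAAG was found, on either strand, in 33.8% of the 65 ribosomal protein windows, against 8.86% of 32851 windows of all genes. CTTTCC was found in 49.2% of the ribosomal protein windows, against 26.6% of all windows. This motif and those below were also counted on either strand. A CTTTCC match can thus be GGAAAG, a purine run, on the strand of the gene. AAGATGGC, the YY1 motif, was found in 12.3%, against 2.75% of all windows, and TATAAA in 9.23%, against 13.6%. An Ets-family match and a YY1 match can share the letters AAG. By their change in bone, CCGGAAG was in 35.0% of the 20 windows of members lower in Ali35 bone and in 33.3% of the 45 windows of the other members. CTTTCC was in 55.0% and 46.7%, AAGATGGC in 5.0% and 15.6%, and TATAAA in 15% and 6.67% of the same windows. A match describes the letters of these windows.

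Ribosomal protein transcripts were lower in Ali35 bone than in wild-type bone for a part of both subunits, by 1.23-fold to 1.45-fold among those that passed the test other than a dim Rps19 probe at 1.57-fold, whose size depends on the floor, and no member was higher past the test. Of 66 kept member probes (56 genes), 17 probes of 16 genes were lower at a Benjamini-Hochberg adjusted p under 0.05 in limma, which is 25.8%, while 11.9% of all 12223 probes tested were lower. Among these genes, Rpl23, Rpl38, Rps9 and Rps19 also had kept probes that did not pass. For Rpl23, Rpl38 and Rps19 the probe that passed was the dimmest kept probe of the gene. No member probe was higher, while 12.7% of all probes were. At an unadjusted p under 0.05 in either direction, 23 of the 66 passed (34.8%), with 38.3% of all probes. The median log2 difference of the members was -0.18 and that of all probes -0.04, and 58 of 66 members lay below 0, where 54.7% of all probes did. All 4 Ali35 arrays lay below all 4 wild-type arrays for 23 members (34.8%, with 15.2% of all probes), and above them for 1 member, a probe of Rpl23 (with 13.5% of all probes).

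The count rests on the full set of arrays. Without wild-type replicate 1, 2, 3 or 4 it was 3, 5, 9 or 1 of 66, and without Ali35 replicate 1, 2, 3 or 4 it was 8, 14, 8 or 10. Dropping an array also lowered the calls over all probes: without wild-type replicate 4 the share lower was 1.52% of members and 5.56% of all probes, without wild-type replicate 1 it was 4.55% and 5.99%, without wild-type replicate 2 it was 7.58% and 8%, and without Ali35 replicate 1 it was 12.1% and 9.61%. The direction of the medians held in each of these fits, with large-subunit medians of -0.19 to -0.13 and small-subunit medians of -0.21 to -0.13.

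**Figure D1:**
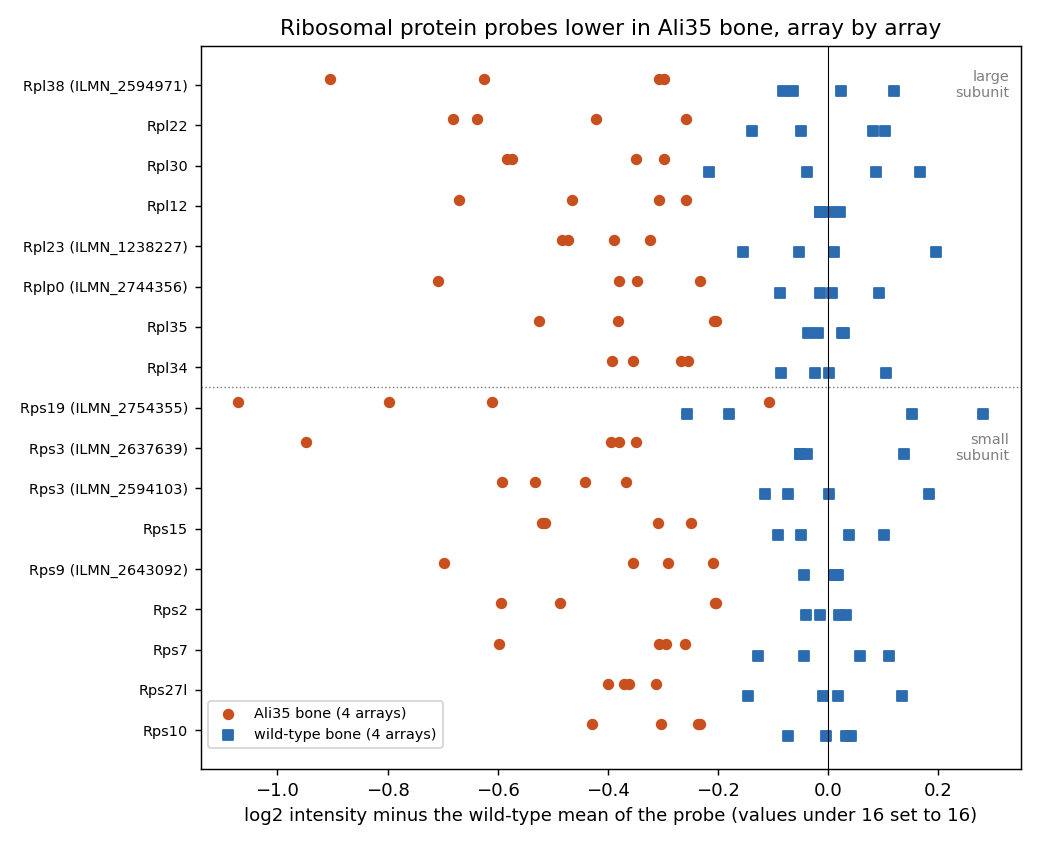
Log2 intensity of each of the 17 member probes lower in Ali35 bone, minus the wild-type mean of that probe, on each array (circles, Ali35; squares, wild type; 4 arrays each). The 17 probes are sorted within subunits by their log2 difference, and the groups overlap for Rps19 alone.

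The 2 subunits had similar medians in bone. Large-subunit probes had a median log2 difference of -0.18 (range -0.53 to 0.28), with 34 of 41 below 0 and 8 lower past the test (19.5%). Small-subunit probes had a median of -0.17 (range -0.65 to 0.23), with 24 of 25 below 0 and 9 lower past the test (36%). No test was made of the subunits against each other. On the single arrays, the median deviation of large-subunit probes from their wild-type means was -0.25, -0.12, -0.14 and -0.12 in Ali35 bone replicates 1 to 4, and that of small-subunit probes -0.30, -0.14, -0.19 and -0.14. Over all probes these 4 medians were -0.06, -0.04, -0.04 and -0.00. Replicate 1, the array with high Xist, was the lowest, but the other 3 Ali35 arrays also lay below every wild-type array, whose member medians were -0.01 to 0.02.

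**Figure D2:**
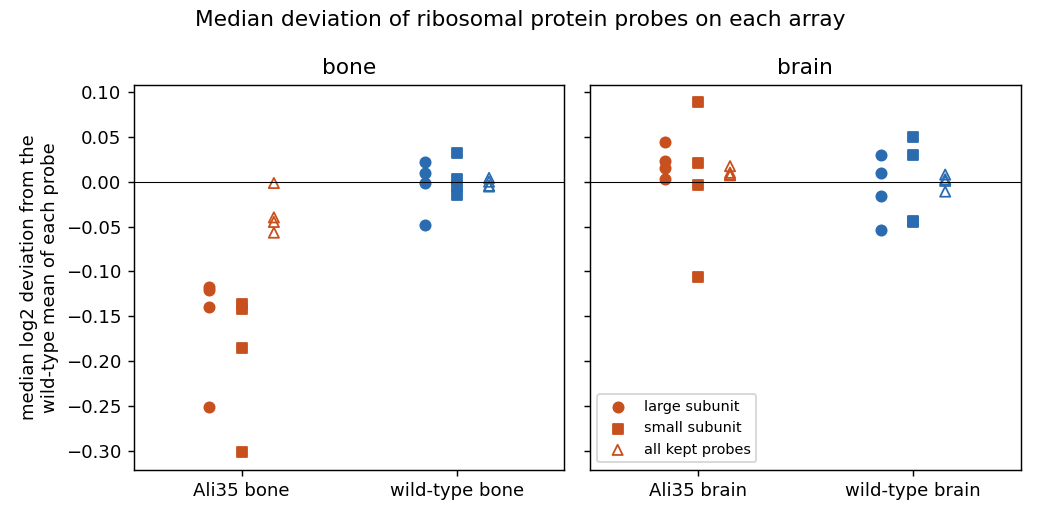
Median deviation (log2) of large- and small-subunit probes, and of all probes, from the wild-type mean on each array of bone and brain; point shape gives the subunit and colour the genotype. In bone the 4 Ali35 arrays lie at -0.30 to -0.12 for both subunits, and in brain at -0.11 to 0.09.

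Members were compared with all probes of like brightness, the members included. Among probes of mean intensity 1024 to 8192, 9 of 24 members were lower in Ali35 bone (37.5%), against 10.2% of all 1715 such probes, with medians of -0.24 and -0.06. Above 8192, 5 of 30 members (16.7%) and 6.94% of 144 probes were lower, with medians of -0.10 and -0.06. Members made up 30 of these 144 probes and 5 of the 10 that were lower. Below 1024, 3 of 12 members (25%) and 12.2% of 10364 probes were lower.

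Among large-subunit members, the stalk that recruits translation factors and its base were represented by Rplp0, Rplp1 and Rpl12. Rplp0, the scaffold of the stalk, had intensities of 226.8, 291.4, 284.6 and 315.3 in Ali35 bone, against 372.5, 366.6, 348.8 and 395 in wild-type bone, a 1.33-fold decrease (log2 -0.42 ± 0.12 SE, adjusted p = 0.0314). Rpl12, which sits at the stalk base, had 6903, 9190, 7960 and 8883 in Ali35 bone, against 10883, 11160, 11025 and 10884 in wild-type bone. Its mean was 8234 ± 1030 in Ali35 and 10988 ± 133 in wild type (SD, n = 4 each), 1.34-fold lower (log2 -0.43 ± 0.11, adjusted p = 0.0228 in limma). The Ali35 arrays of both genes lay below all wild-type arrays. Without Ali35 replicate 1 the adjusted p was 0.0514 for Rplp0 and 0.0395 for Rpl12. The Rplp0 call was also lost without wild-type replicate 1, 2 or 4 or Ali35 replicate 3 (adjusted p up to 0.0892), and the Rpl12 call without wild-type replicate 1, 2 or 4 or Ali35 replicate 3 (up to 0.0588). Rplp1, the brightest large-subunit probe in both tissues, did not follow them: it had 31989, 31677, 28454 and 36118 in Ali35 bone, against 29611, 27651, 33346 and 28221 in wild-type bone (log2 0.11 ± 0.11, adjusted p = 0.501), and the groups overlapped. A second Rplp0 probe and the probe of Rplp2 stayed under 16 on every array.

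Rpl22 is an RNA-binding protein that mice need for alpha-beta T-cell development. It had 1033, 770.5, 793.9 and 922.9 in Ali35 bone, against 1308, 1194, 1122 and 1328 in wild-type bone, 1.41-fold lower (log2 -0.50 ± 0.12, adjusted p = 0.0185). Its paralog Rpl22l1 was dim, with 22.22, 22.76, 36.55 and 32.85 in Ali35 bone, against 36.02, 35.77, 28.96 and 31.85 in wild-type bone (log2 -0.24 ± 0.18, adjusted p = 0.340). The groups were separate for Rpl22 and overlapped for Rpl22l1. The Rpl22 call was kept without Ali35 replicate 1 (adjusted p = 0.0128) and lost without wild-type replicate 1 or 4 (up to 0.0574).

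Rpl38 is known in mice for its part in the translation of Hox mRNAs and in patterning of the axial skeleton. One of its probes had 937.6, 1177, 1170 and 772.9 in Ali35 bone, against 1384, 1368, 1572 and 1471 in wild-type bone, 1.45-fold lower (log2 -0.53 ± 0.15, adjusted p = 0.0266). This was the lowest large-subunit probe, and its groups were separate. The other Rpl38 probe had 21230, 22706, 21615 and 27209 in Ali35 bone, against 25226, 26426, 22510 and 23503 in wild-type bone (log2 -0.08 ± 0.11, adjusted p = 0.640), so the 2 probes of the gene differed. Without Ali35 replicate 1 the adjusted p of the first probe was 0.0571, and its call was also lost without wild-type replicate 1, 3 or 4 (up to 0.0697).

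Rpl23, which can bind Mdm2, had 3 kept probes that disagreed. One had 339.9, 342.7, 363 and 379.6 in Ali35 bone, against 458, 427.2, 478.6 and 544.2 in wild-type bone (log2 -0.42 ± 0.11, adjusted p = 0.0207). The second was near 0 (log2 -0.03 ± 0.10, adjusted p = 0.859). The third was the highest large-subunit member, with 19897, 21456, 18909 and 27042 in Ali35 bone, against 17960, 17189, 18316 and 17986 in wild-type bone (log2 0.28 ± 0.12, adjusted p = 0.131). Its Ali35 arrays all lay above its wild-type arrays, the reverse of the first probe, and the difference did not pass the test. The first probe kept its call without Ali35 replicate 1 (adjusted p = 0.0416) and lost it without wild-type replicate 4 (0.0617).

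Rpl30, Rpl34 and Rpl35 completed the large-subunit members lower in bone. Rpl30 had 1165, 1410, 1362 and 1157 in Ali35 bone, against 1841, 1492, 1688 and 1948 in wild-type bone, 1.37-fold lower (log2 -0.45 ± 0.12, adjusted p = 0.0251). Rpl34 had 5177, 5698, 5313 and 5647 in Ali35 bone, against 7310, 6689, 6404 and 6803 in wild-type bone (log2 -0.32 ± 0.09, adjusted p = 0.0346). Rpl35, which lies at the peptide exit where the signal recognition particle docks, had 13088, 16314, 14456 and 16361 in Ali35 bone, against 18583, 19203, 19163 and 18361 in wild-type bone (log2 -0.33 ± 0.10, adjusted p = 0.0456). For all of these the groups were separate. Without Ali35 replicate 1 the adjusted p was 0.0541 for Rpl30, 0.0644 for Rpl34 and 0.0864 for Rpl35. The Rpl30 call was also lost without wild-type replicate 1 or 4 or Ali35 replicate 4, the Rpl34 call without wild-type replicate 1, 2 or 4 or Ali35 replicate 3 or 4, and the Rpl35 call without any wild-type array or Ali35 replicate 3, with adjusted p up to 0.0762, 0.0997 and 0.0952. Rpl13a, Rpl19, Rpl23a, Rpl31, Rpl36al and Rpl7l1 had an unadjusted p under 0.05 without passing after adjustment.

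In the small subunit, Rps3, Rps2 and Rps9 line the channel by which mRNA enters. Rps3 was the one gene with 2 probes lower in bone. The first had 1707, 1638, 1819 and 1915 in Ali35 bone, against 2282, 2473, 2348 and 2807 in wild-type bone, 1.40-fold lower (log2 -0.48 ± 0.11, adjusted p = 0.0117). The second had 3042, 4515, 4467 and 4610 in Ali35 bone, against 5672, 5717, 5670 and 6461 in wild-type bone, 1.43-fold lower (log2 -0.52 ± 0.15, adjusted p = 0.0290). The groups were separate on both probes. The first probe passed the test under each of the alternative settings and left-out arrays tried, with adjusted p of at most 0.0384, and was alone in this among the 17. The second was kept without Ali35 replicate 1 (log2 -0.37, adjusted p = 0.0307) and lost without any 1 wild-type array (up to 0.0846).

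Rps2 had 6650, 8089, 8095 and 6177 in Ali35 bone, against 9064, 9230, 9455 and 9531 in wild-type bone (log2 -0.37 ± 0.12, adjusted p = 0.0419). Rps9 had 6563, 9210, 8323 and 8695 on 1 probe in Ali35 bone, against 10747, 10776, 10317 and 10716 in wild-type bone (log2 -0.39 ± 0.12, adjusted p = 0.0411). The other Rps9 probe differed little, with a log2 difference of -0.10 ± 0.12 (adjusted p = 0.584). Rps7, which can bind Mdm2, had 10453, 12902, 13219 and 12784 in Ali35 bone, against 15346, 14487, 16472 and 17084 in wild-type bone (log2 -0.36 ± 0.11, adjusted p = 0.0406). All Ali35 arrays were below all wild-type arrays for Rps2, the first Rps9 probe and Rps7. Without Ali35 replicate 1 the adjusted p was 0.0844 for Rps2, 0.0616 for Rps9 and 0.0755 for Rps7. Each of these calls was also lost without any 1 wild-type array, that of Rps2 without Ali35 replicate 4, that of Rps9 without Ali35 replicate 3 or 4 and that of Rps7 without any Ali35 array, with adjusted p up to 0.102, 0.0953 and 0.113.

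Rps10 and Rps19 are genes of Diamond-Blackfan anaemia in humans. Rps10 had 5745, 6566, 6268 and 6586 in Ali35 bone, against 7352, 7961, 7716 and 7917 in wild-type bone (log2 -0.30 ± 0.09, adjusted p = 0.0429), with separate groups. Its call was lost without any 1 of the 8 arrays (adjusted p = 0.0814 without Ali35 replicate 1, and up to 0.107). A dim Rps19 probe had 31.21, 22.02, 14.67 and 19.35 in Ali35 bone, against 28.17, 40.9, 37.38 and 29.69 in wild-type bone. It was the lowest small-subunit probe (log2 -0.65 ± 0.21, adjusted p = 0.0467), its groups overlapped, and 1 Ali35 array lay under the floor. With a floor of 32 its difference was -0.14 (adjusted p = 0.265), without Ali35 replicate 1 it was -0.83 (adjusted p = 0.0145), and the call was lost without any 1 other array (adjusted p up to 0.112). The bright Rps19 probe, with 12046, 13683, 13028 and 16233 in Ali35 bone, against 15379, 16689, 15331 and 15903 in wild-type bone, did not pass (log2 -0.21 ± 0.11, adjusted p = 0.196).

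Rps15, which lies near the decoding site, had 3979, 4148, 3453 and 3442 in Ali35 bone, against 4631, 5290, 4765 and 5063 in wild-type bone (log2 -0.40 ± 0.11, adjusted p = 0.0238). Rps27l, a paralog of Rps27 that Trp53 can induce, had 7389, 7548, 7854 and 7590 in Ali35 bone, against 10700, 9698, 8817 and 9880 in wild-type bone (log2 -0.36 ± 0.10, adjusted p = 0.0242). Both had separate groups. Without Ali35 replicate 1 the adjusted p was 0.0307 for Rps15 and 0.0455 for Rps27l. The Rps15 call was lost without wild-type replicate 2 or 4 or Ali35 replicate 3 or 4 (up to 0.0668), and the Rps27l call without wild-type replicate 1, 2 or 4 (up to 0.0738). Rps27 itself differed by a log2 of -0.17 ± 0.10 (adjusted p = 0.234).

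Rps6, the small-subunit protein that S6 kinases phosphorylate downstream of mTOR, had 5574, 8631, 7658 and 5954 in Ali35 bone, against 7717, 6298, 8103 and 8372 in wild-type bone (log2 -0.15 ± 0.16, adjusted p = 0.531), with overlapping groups. The brightest small-subunit probe, Rps20, had 22799, 25454, 24335 and 28298 in Ali35 bone, against 27316, 26525, 27053 and 25600 in wild-type bone (log2 -0.08, adjusted p = 0.576). The highest and also the dimmest small-subunit probe, Rps15a, had 23.99, 23.79, 40.67 and 29.88 in Ali35 bone, against 17.35, 24.23, 25.42 and 34.51 in wild-type bone (log2 0.23 ± 0.23, adjusted p = 0.495). In each of these 3 members the groups overlapped.

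Rpl3 and Rpl3l, its paralog of striated muscle in mice, did not differ past the test in bone. Rpl3 had 11115, 13378, 12144 and 13370 in Ali35 bone, against 11829, 13165, 13139 and 12823 in wild-type bone (log2 -0.03 ± 0.10, adjusted p = 0.854). Rpl3l had 8621, 4310, 6671 and 8400 in Ali35 bone, against 6945, 6392, 5877 and 5752 in wild-type bone (log2 0.12 ± 0.21, adjusted p = 0.705). In brain Rpl3l stayed under 16 on every array, and skeletal muscle markers were measured in bone, with 4 of 11 probes higher in Ali35 bone and summed intensities of 84997 to 125314 in Ali35, against 82818 to 91250 in wild type. The part of muscle in the Rpl3l values was not tested.

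The paralogs Rpl36a and Rpl36al had log2 differences of -0.19 ± 0.10 and -0.23 ± 0.10 in bone (adjusted p = 0.196 and 0.117). Rpl7l1 had -0.21 ± 0.09 on 1 probe and 0.05 ± 0.17 on the other (adjusted p = 0.129 and 0.860). Rpl10 had -0.11 ± 0.09, Rpl39 -0.05 ± 0.11 and Rps4x -0.11 ± 0.10 (adjusted p = 0.428, 0.794 and 0.405). None of these passed the test.

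Of the 81 member probes, 15 reached 16 on too few arrays in either tissue to be kept, and 7 genes had no kept probe: Rpl14, Rpl17, Rpl39l, Rpl6, Rplp2, Rps23 and Rpsa. In all, 66 probes were kept in bone and 62 in brain, the 62 being among the 66. The dimmest kept large-subunit probe in both tissues, a probe of Rpl21, had 17.8, 29.42, 25.89 and 26.08 in Ali35 bone, against 34.63, 24.97, 26.57 and 28.24 in wild-type bone. The groups overlapped. RefSeq named 318 pseudogene loci after genes of this family, for 48 of the 63 genes, and whether a probe also reads such copies was not tested, so single members are uncertain to that extent.

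**Figure D3:**
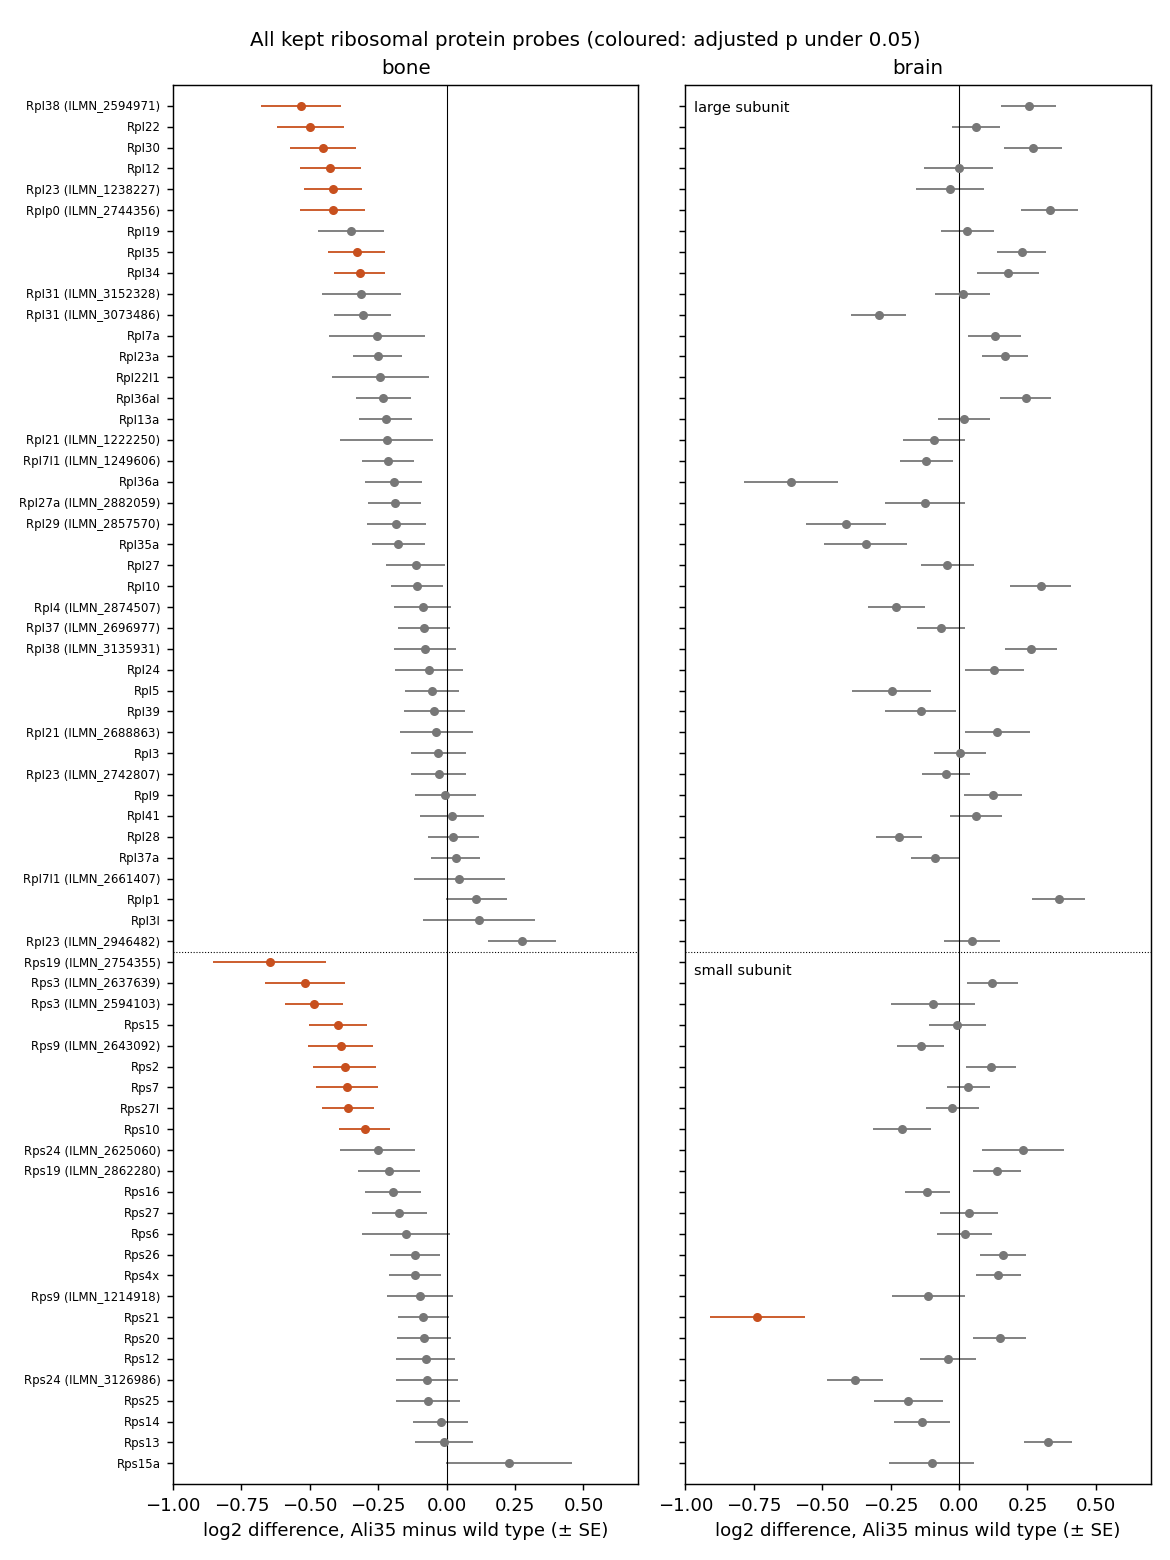
Log2 difference (Ali35 minus wild type, ± SE) of every kept ribosomal protein probe in bone (left, 66 probes) and brain (right, 62 probes), sorted by the difference in bone within each subunit; coloured points passed adjusted p under 0.05. In bone 17 probes are coloured, all below 0, and in brain 1, Rps21.

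In brain, ribosomal protein transcripts lay on both sides of 0, with medians near 0 for both subunits. Of 62 kept member probes (54 genes), 1 was lower past the test (1.61%), with 1.74% of all 10922 probes lower, and none was higher, with 1.90% of all probes higher (3.64% in either direction). At an unadjusted p under 0.05, 17 of the 62 passed (27.4%), with 23.6% of all probes. Under a trended robust variance 11 members passed, 6 of them higher, and with a floor of 8, no filter or quantile normalization none did. The median log2 difference was 0.02 for large-subunit probes (range -0.61 to 0.36), -0.02 for small-subunit probes (range -0.74 to 0.33) and 0.01 for all probes. Below 0 lay 30 of the 62, or 48.4%, as did 48.4% of all probes. The Ali35 arrays lay below all wild-type arrays for 8 members (Rpl28, Rpl29, Rpl31, Rpl36a, Rps16, Rps21, Rps24 and Rps9, with 6.88% of all probes) and above them for 8 (Rpl23a, Rpl35, Rplp0, Rplp1, Rps13, Rps26, Rps3 and Rps4x, with 8.78% of all probes).

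Rps21, a small-subunit protein, was the member lower in Ali35 brain. It had 1141, 1291, 1477 and 2024 in Ali35 brain, against 2968, 2351, 2279 and 2136 in wild-type brain, with means of 1484 ± 386 in Ali35 and 2433 ± 367 in wild type (SD, n = 4 each). The difference was 1.67-fold (log2 -0.74 ± 0.17, adjusted p = 0.0474 in limma), and the highest Ali35 array lay just under the lowest wild-type array. The call was also lost with the floor set to 8 or 32, and when any 1 brain array other than Ali35 replicate 4 was left out, with adjusted p of 0.0774 to 0.132. Using no filter, quantile normalization or the replicate number as a block lost it as well. In bone Rps21 had 10588, 11875, 11189 and 12071 in Ali35, against 12685, 11985, 11605 and 12180 in wild type (log2 -0.08 ± 0.09, adjusted p = 0.530). Erythroid markers were also low in Ali35 brain, with summed intensities of 3590 to 7031 in Ali35, against 6745 to 11990 in wild type, and 1 of 4 probes lower past the test. Oligodendrocyte lineage markers had 1 of 9 probes lower, with a median log2 difference of -0.48 and sums of 2840 to 3807 in Ali35, against 3511 to 4294 in wild type. Astrocyte and radial glia markers had 2 of 9 lower, with sums of 5888 to 6812 in Ali35, against 5207 to 5794 in wild type, and neuron markers 1 of 8, with sums of 11868 to 12641 in Ali35, against 12335 to 13300 in wild type. The part of these markers in the Rps21 value was not tested.

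Other members with the largest differences in brain did not pass the test. Rpl36a, the lowest large-subunit probe, had 585.5, 527.7, 672.7 and 530.6 in Ali35 brain, against 1282, 839, 761.5 and 738.9 in wild-type brain (log2 -0.61 ± 0.17, adjusted p = 0.0732). Rplp1, the highest large-subunit probe, had 17552, 18245, 18744 and 17958 in Ali35 brain, against 12321, 14946, 13604 and 15687 in wild-type brain (log2 0.36 ± 0.10, adjusted p = 0.0669). Rps13, the highest small-subunit probe, had 2897, 2820, 3177 and 2686 in Ali35 brain, against 2192, 2422, 2261 and 2356 in wild-type brain (log2 0.33 ± 0.09, adjusted p = 0.0689). In all 3 the groups were separate. The brightest small-subunit probe in brain, Rps20, had 8927, 8899, 9699 and 10036 in Ali35 brain, against 7462, 9109, 8476 and 8875 in wild-type brain (log2 0.15, adjusted p = 0.377). The dimmest, a probe of Rps24, had 49.57, 34.61, 56.52 and 57.09 in Ali35 brain, against 40.37, 40.29, 42.18 and 42.04 in wild-type brain (log2 0.24, adjusted p = 0.373). The groups overlapped for Rps20 and Rps24. Rps6 had 1971, 2233, 2265 and 2442 in Ali35 brain, against 1943, 2293, 2313 and 2229 in wild-type brain (log2 0.02 ± 0.10, adjusted p = 0.924).

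The difference between the tissues was tested directly, as the log2 difference in bone minus that in brain, over the 9225 probes kept in both. Of the 62 members, 13 passed (21%), with 24.4% of all probes passing, so the count of members was near that of all probes. Members that passed below 0 numbered 12 of 62 (19.4%), with 11.6% of all probes, and 1 of 62 passed above 0 (1.61%), with 12.9% of all probes. Large-subunit probes made up 9 of the 13 and small-subunit probes 4. The stalk scaffold Rplp0 had the lowest p: it had 216.9, 165.5, 204 and 191.1 in Ali35 brain, against 146, 149.3, 155.4 and 164.8 in wild-type brain (log2 0.33 ± 0.10, adjusted p = 0.0940), a direction opposite to that in bone. Its changes differed by -0.75 ± 0.15 (adjusted p = 0.00272).

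Rpl30 had 714.2, 820.4, 911.2 and 923.5 in Ali35 brain, against 654.7, 673.2, 761.3 and 692.1 in wild-type brain, and its change in bone minus that in brain was -0.72 ± 0.16 (adjusted p = 0.00394). The first Rpl38 probe had 400.4, 329.9, 402.7 and 418.9 in Ali35 brain, against 336.3, 323, 301.5 and 335.8 in wild-type brain, with a difference between tissues of -0.79 ± 0.17 (adjusted p = 0.00448). For both, the groups overlapped in brain and were separate in bone. Rpl35 had 5332, 5287, 5506 and 5441 in Ali35 brain, against 4071, 4935, 4711 and 4721 in wild-type brain, with -0.56 ± 0.13 (adjusted p = 0.00503). Rpl22 had 1192, 1188, 1178 and 1323 in Ali35 brain, against 1175, 1083, 1231 and 1187 in wild-type brain, with -0.56 ± 0.14 (adjusted p = 0.00961). Rpl35 was thus separate and higher on each Ali35 brain array, and Rpl22 overlapped.

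Rpl23a had 7837, 8646, 8025 and 8387 in Ali35 bone, against 9722, 9783, 9519 and 10142 in wild-type bone. In brain it had 3436, 3255, 2919 and 3230 in Ali35, against 2850, 2831, 2839 and 2888 in wild type, so its groups were separate in opposite directions. Its changes differed by -0.42 ± 0.11 (adjusted p = 0.00985), although neither tissue alone passed. The second Rps3 probe had 1040, 1028, 1074 and 1033 in Ali35 brain, against 1025, 969.3, 833.2 and 1023 in wild-type brain, with a difference of -0.64 ± 0.17 (adjusted p = 0.0123). Rpl36al had 4112, 4323, 4387 and 4648 in Ali35 brain, against 3332, 4141, 3628 and 3687 in wild-type brain, with -0.48 ± 0.13 (adjusted p = 0.0129). The remaining members below 0 were Rpl34, Rps2, Rps7 and Rpl10, at -0.50 to -0.40. The Rpl10 value was lost without 12 of the 16 arrays, namely all but wild-type bone replicate 4, Ali35 bone replicate 2, wild-type brain replicate 2 and Ali35 brain replicate 2 (adjusted p up to 0.0892), and under quantile normalization (0.134). The Rps7 value was lost without wild-type bone replicate 4, wild-type brain replicate 1 or Ali35 brain replicate 1 (up to 0.0654), and under quantile normalization (0.197). Rps21 alone lay above 0, at 0.65 ± 0.20 (adjusted p = 0.0278), and this was lost without wild-type brain replicate 1 or Ali35 brain replicate 1 or 2 (adjusted p = 0.0599, 0.0521 and 0.0531). The values of Rpl10, Rps7 and Rps21 were also lost when the replicate number was fitted as a block (adjusted p = 0.0692 for Rps21).

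**Figure D4:**
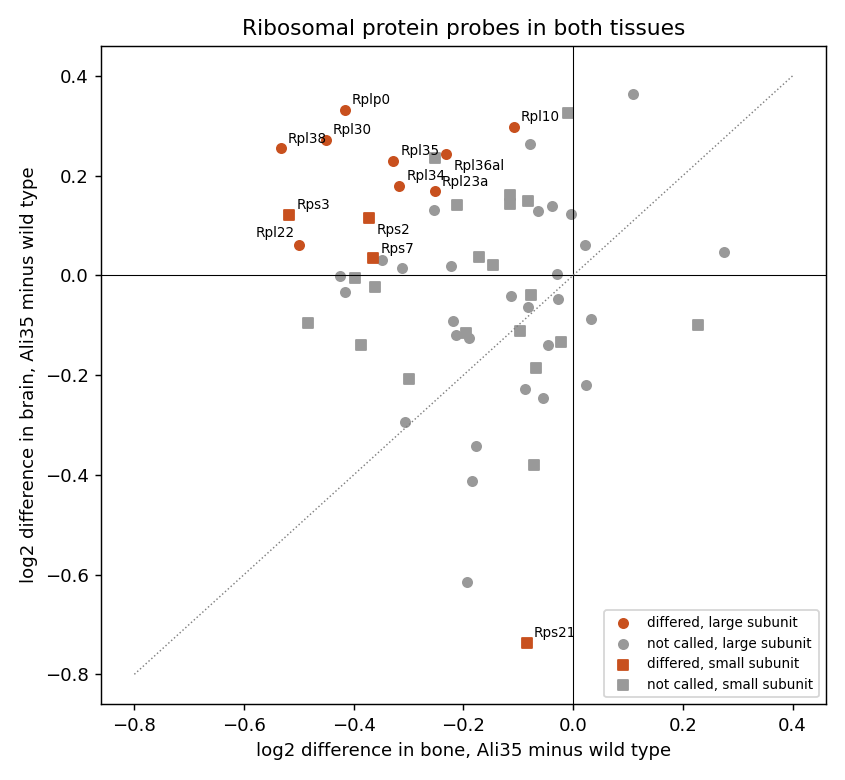
Log2 difference (Ali35 minus wild type) of each of the 62 members kept in both tissues, in bone (x axis) and brain (y axis), with members whose change differed between tissues named and a dotted line at equal values. Of the 13 named, 12 have a lower value in bone than in brain and Rps21 the reverse.

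Other translation genes, taken from lists beside the members, had calls in both directions in bone. Outside the naming rule, 3 listed probes were kept, of the ribosomal proteins Rps3a1 and Fau and of Nedd8, a ubiquitin-like modifier. Rps3a1, a small-subunit protein, was lower (log2 -0.50 ± 0.11, adjusted p = 0.0128), as was Nedd8 (-0.31 ± 0.09, adjusted p = 0.0325). Fau did not pass (-0.32 ± 0.11, adjusted p = 0.0571). Initiation factors had 6 of 42 probes lower and 1 higher, among them Eif3k at -0.45 and Eif4g2 at -0.79, with Pabpc1, the poly(A)-binding protein, at 0.70. The list of elongation and termination factors and related genes had 1 of 24 probes lower, Eef1e1 at -0.64. It had 4 higher, among them Eef1d at 0.75 and Eef1a2, the form of muscle and neurons, at 0.90. The Eef1d value is that of a dim probe, with a mean of 71.0 in Ali35 bone and 42.7 in wild-type bone, and the other Eef1d probe was at 0.07 (adjusted p = 0.626). The other Eif4g2 probe was at 0.18 (adjusted p = 0.598). In brain 1 of 40 initiation probes was higher, Eif5 at 0.59, and 1 of 25 elongation probes lower, Abce1 at -0.55. The other Eif5 probes kept in brain were at -0.13 (adjusted p = 0.440) and 0.12 (adjusted p = 0.607). The Abce1 probe was dim, with a mean of 13.5 in Ali35 brain, under the floor, and 24.7 in wild-type brain. The size of its difference therefore depends on the floor.

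Ribosome assembly factors of the nucleolus had 10 of 93 probes higher and 12 lower in bone, with Rrp12 at 0.72, Nop2 at 0.58 and Heatr1 at 0.55 of lowest p. RNA polymerase I and its factors had 2 of 13 higher, both of its largest subunit Polr1a (0.75 and 0.67), and 2 lower, one of them Taf1d at -0.55. Of mTOR and other regulators, 4 of 27 probes were higher, including both probes of Tsc2, an inhibitor of mTOR signalling, at 1.12 ± 0.11 and 1.10 ± 0.14 (adjusted p = 0.000492 and 0.00139), and Mtor at 0.58 ± 0.12 (adjusted p = 0.00970), and 3 were lower. Promoter factors had 3 of 10 lower, both probes of Gabpb1, a GABP subunit (-0.48 and -0.43), and Nfyb (-0.39), and none higher. In brain these lists had 3 higher and 2 lower of 85, 1 and 0 of 13, 0 and 1 of 23, and 0 and 0 of 8; Rrp1b at 0.88, Tsr3 at -0.64, Rpf1 at 0.60, Cd3eap at 0.61 and Lamtor2 at -1.19 were the members of lowest p. List members were counted against the 11.9% lower and 12.7% higher of all probes in bone, and the 1.74% lower and 1.90% higher in brain. The other kept brain probes of Rrp1b, Tsr3 and Rpf1 had the same sign as the probe named and did not pass. Of 22 genes of these lists with several kept probes and at least 1 called in bone, 5 had every probe called and 4 had probes of opposite sign, and in brain 0 of 4 had every probe called and 1 had probes of opposite sign.

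Cell type markers also differed between the bone groups. B lymphocyte markers had 3 of 8 probes lower, with summed intensities of 2767 to 4276 in Ali35 bone, against 4814 to 5401 in wild-type bone. Cartilage markers had 6 of 8 probes higher, with sums of 12167 to 18050 in Ali35 bone, against 2771 to 5846 in wild-type bone, and osteoblast and osteocyte markers had 4 of 13 higher, with sums of 52059 to 81060 in Ali35, against 45313 to 62918 in wild type. Neutrophil markers had 3 of 14 probes higher and 1 lower, and erythroid markers 0 of 10 in either direction. The part of these markers in the ribosomal protein values was not tested.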

How the data were processed

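Total RNA was labelled with biotin and hybridized to Illumina one-colour arrays, 1 per mouse. The authors deposited normalized linear intensity values, and GenomeStudio 2011.1 is named per the submitters' processing notes. Values below 0 show that background had been subtracted; the normalization method is not given in the sources used here. In a second, non-normalized table, 32 columns matched no sample label and were not used. Probes with 1 symbol numbered 23978, with none 1719 and with several 0.

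Log2 intensities (floor 16) were fitted by tissue with limma 3.58.1 (lmFit, eBayes, 6 residual df; R 4.3.3), Ali35 against wild type, over all kept probes, with Benjamini-Hochberg adjustment and a threshold of 0.05, two-sided; an interaction term compared tissues. Errors of log2 values are limma's standard errors. The fit was tested on simulated data. Separate mice underlie the replicates. For arrays, their number limits the precision. Promoters were read in Python 3.11.15 and figures drawn with matplotlib 3.10.9. The members and lists were chosen with earlier results of these data known. Genes were named by rule: probes called in a tissue or between tissues (up to 8), the highest, lowest, brightest and dimmest of each subunit, stalk members, Rpsa, Rps6, paralogs, and up to 3 genes of lowest p per list. Alternatives covered the floor, filter, scaling, variance model, probe choice, array weights, a replicate block and leaving out each array.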

Additional observations from a re-analysis of the deposited data

Results flagged for a closer look

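In 7 of 128 groups of 4 values, 1 array lay far from the other 3 by Dixon's ratio, and chance gives about 1 group in 20. In bone, Ali35 replicate 1 was low for the second Rps3 probe (3042, others 4467 to 4610), for Rps7 (10453, others 12784 to 13219) and for the median deviation of large-subunit probes (-0.25, others -0.14 to -0.12). Wild-type bone replicate 4 was high for the same Rps3 probe (6461, others 5670 to 5717), and wild-type bone replicate 3 was low for a probe of Rps9 (10317, others 10716 to 10776). In brain, Ali35 replicate 4 was high for Rpl22 (1323, others 1178 to 1192), and wild-type replicate 1 was high for a probe of Rpl23 (240.1, others 184.2 to 193.7). Ali35 bone replicate 1 is also the array with Xist signal.

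The change in bone differed from that in brain for 13 of 62 members (21%) by the interaction test. Of all 9225 probes tested, 24.4% passed, so the count of members was near that of all probes. As log2 change in bone minus log2 change in brain, the value was -0.79 for Rpl38, -0.75 for Rplp0, -0.72 for Rpl30, -0.64 for Rps3, -0.56 for Rpl35, -0.56 for Rpl22, -0.50 for Rpl34, -0.49 for Rps2, -0.48 for Rpl36al, -0.42 for Rpl23a, -0.41 for Rpl10 and -0.40 for Rps7. For Rps21 it was 0.65. The calls of Rpl10, Rps7 and Rps21 were lost under some of the alternative settings and left-out arrays.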

How the results depend on the processing

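No called value changed sign under the alternatives, but the large-subunit median in brain, which lies near 0, did. The count of members lower in bone, 17, was 7 of 81 with no filter, 6 with the replicate block and 1 to 14 without single arrays, and 13 to 21 under the other settings, with none higher in any. The large-subunit median in bone, -0.18, was -0.11 with a floor of 32 and -0.079 with no filter. The count in brain, 1, was 0 with a floor of 8, with no filter, with quantile normalization and with the replicate block, 11 (6 of them higher) with a trended robust variance, and 0 to 1 without single arrays. The large-subunit median in brain, 0.02, was -0.025 under quantile normalization and -0.0062 to 0.038 without single arrays. The 13 members that differed between tissues became 22 with a floor of 32 and 22 with a trended robust variance, 10 with the replicate block and 11 to 15 without single arrays. Each setting was applied across the array, and the share of all probes called under it is not given beside these counts. A changed count is therefore no result about the members alone. Of 285 values recomputed for the 17 bone probes, 106 lost the call, and 23 of 273 did between tissues. Same-numbered mice did not deviate together (r of -0.116 to 0.163 in bone and 0.0116 to 0.14 in brain), so the numbers were not taken as pairs. Probes near the floor, such as the dim Rps19 probe, have sizes that depend on it. The causes of these changes were not tested.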
